A study of Mus musculus with 22 samples.

Results

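The comparison set 3 Trp53 het bladders against 4 Cre control bladders, all from mice that drank BBN, and these 7 arrays were chosen by their titles from the 22 arrays of the study. BBN, N-butyl-N-(4-hydroxybutyl)nitrosamine, is a bladder carcinogen. It was given in the drinking water for 24 weeks, between 2 and 8 months of age, and the tissue of all 7 samples is labelled bladder tumor. RNA of each sample, extracted from whole bladder, was read on 1 one-colour Agilent array. The remaining 15 arrays hold 3 normal samples, titled normal urothelium and called normal bladders below, and 12 BBN bladders with an activated Trp53 mutation. The normal samples may therefore differ from the 7 arrays in the tissue layers they hold, which was not tested. All 15 give a scale for the levels and enter the fits, where they help to set the residual spread and the slide terms behind the p-values.

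The Trp53 het mice carried the genotype Trp53R270H/+ with no Cre driver named, received no tamoxifen, and are titled Trp53+/-. They are counted here, like the Cre controls, as having no activated Trp53 mutation. Recombination of the allele was not tested. The Cre controls were 2 Krt5-CreERT2; LSL-RFP and 2 Upk2-CreERT2; LSL-RFP mice, which had no Trp53 mutation in their genotype entry and received tamoxifen. The Krt5 promoter drives Cre in basal urothelial cells and the Upk2 promoter drives it in luminal urothelial cells. Genotype, the Cre and reporter transgenes, and tamoxifen therefore differ together between the sides and cannot be told apart. All 3 Trp53 het mice are labelled male, against 1 male and 3 females among the Cre controls. RNA for sex-linked genes went against that label on 2 arrays. Trp53 het 3, labelled male, had Xist above background at a log2 level of -2.04 and 4 Y-linked genes (Ddx3y, Eif2s3y, Kdm5d, Uty) not above it, whereas Upk2-Cre 2, labelled female, had all 4 above background and Xist not. Trp53 het 1 and 2 share an animal code, as do Upk2-Cre 1 and 2, so that the p-values may measure in part a technical spread. The last pair differed in Xist and Y-linked RNA.

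Trp53 encodes p53, a transcription factor that DNA damage stabilises and that drives genes of cell cycle arrest (Cdkn1a), of cell death (Bbc3) and of its own degradation (Mdm2). The urothelium that BBN transforms has basal cells with Krt5 and Krt14, and luminal cells with uroplakins such as Upk2. BBN tumours of mice often turn squamous: they switch on the genes with which epidermis builds its cornified envelope and its lipid barrier.

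A level is given throughout as log2 signal relative to the 75th percentile of the array, and levels of different genes cannot be compared with each other on that scale. A value after ± is a standard error unless another error is named. A difference is the mean of the Trp53 het arrays minus the mean of the Krt5-Cre and Upk2-Cre means, in log2 units. The share of spots well above background was 47.0% to 63.2% on the Trp53 het arrays and 44.0% to 61.2% on the Cre control arrays. Both sides lie on the same slides. Slide 2 holds Trp53 het 2 and 3, Krt5-Cre 2 and Upk2-Cre 2, and slide 3 holds Trp53 het 1, Krt5-Cre 1 and Upk2-Cre 1. Per the file headers the 2 slides were read on different scanners, so that slide and scanner cannot be told apart here. The share well above background was 44.0% to 51.0% on slide 2 and 58.4% to 63.2% on slide 3. The lowest level well above background was -3.76 to -2.77 on slide 2 and -5.72 to -5.28 on slide 3. A weak gene thus counts as above background more easily on slide 3. Arrays are bulk readings, in which fewer cells of a type and less RNA per cell cannot be told apart.

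The Trp53 transcript itself did not separate the groups. Its level was -0.42, 1.62 and 0.84 in Trp53 het bladders, against -0.08 and 0.80 in Krt5-Cre and 0.70 and 1.58 in Upk2-Cre bladders. The ranges overlapped almost fully, and the difference was -0.07 ± 0.63 (95% interval -1.40 to 1.26; limma, adjusted p = 0.9998). The gene lies at chr11:69580348-69591873 (GRCm38.p6), and the array does not tell its alleles apart. Cdkn1a, which encodes the p21 inhibitor of cyclin-dependent kinases, stood at 1.32, 2.90 and 1.98 in Trp53 het bladders, against 2.52, 3.13, 1.87 and 2.94 in the Cre controls (difference -0.55 ± 0.54, limma adjusted p = 0.9998). Mdm2, the ubiquitin ligase that removes p53, was nearly flat, at 2.94 to 3.23 in Trp53 het and 2.85 to 3.21 in Cre control bladders (difference 0.09 ± 0.25).

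Among 33 p53 target genes, 18 had a difference above 0 and the median was 0.05, beside 53.6% above 0 and a median of 0.03 over all 17404 genes tested. None lay apart by a log2 difference of 1 or more, beside 0.54% of all genes higher and 2.03% lower. Bbc3, which encodes the pro-apoptotic protein PUMA, had the smallest p of the list. It stood at 0.67, 1.46 and 1.22 in Trp53 het bladders, against 0.21, 0.63, 0.09 and 0.31 in the Cre controls. The groups did not overlap, yet the difference of 0.81 ± 0.31 did not pass the threshold (limma, adjusted p = 0.853). Sesn1, a stress-induced regulator of growth signalling, lay the other way, at 0.65 to 1.64 in Trp53 het bladders and 1.67 to 2.31 in the Cre controls (difference -0.61 ± 0.26, limma adjusted p = 0.977). Cdc42ep3 (-0.63) and Phlda3, an inhibitor of AKT (0.44), overlapped between the groups.

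**Figure D1:**
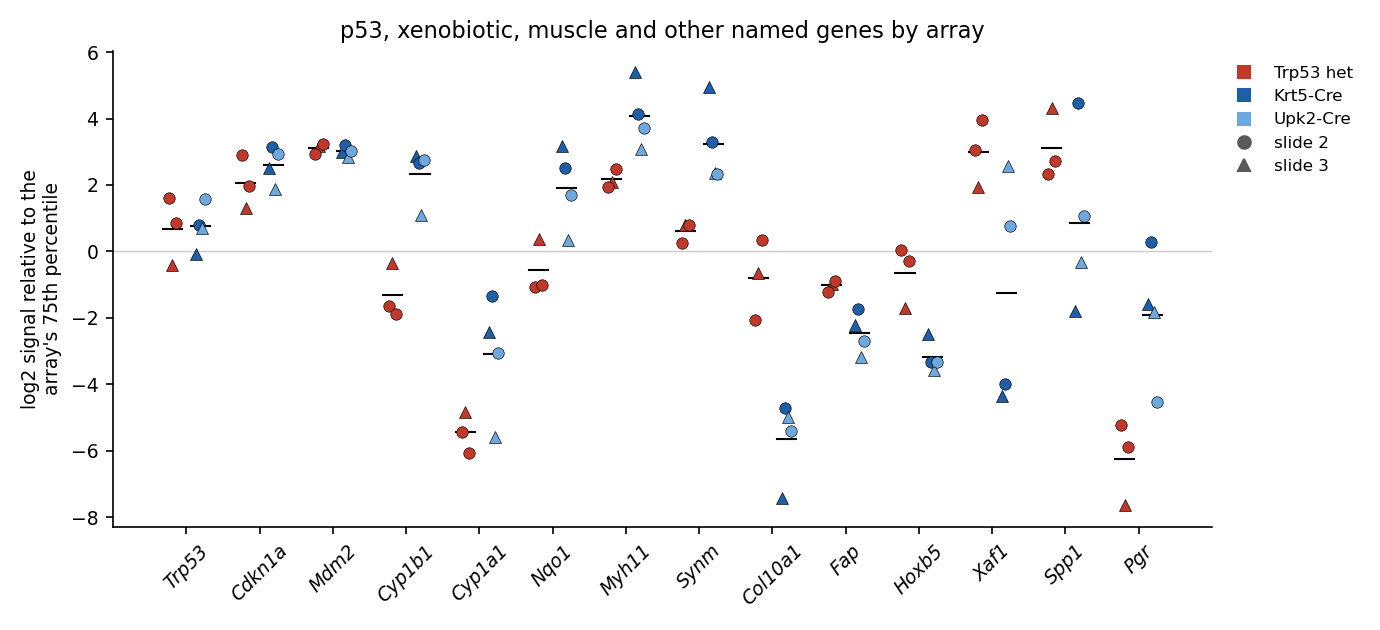
Log2 level (relative to the 75th percentile of the array) of 14 named genes in 3 Trp53 het (red, left of each pair) and 4 Cre control arrays (right, Krt5-Cre in dark and Upk2-Cre in light blue). Circles are slide 2, triangles slide 3, and bars are the plain means over the arrays of a side. Trp53, Cdkn1a and Mdm2 overlap between the sides, whereas Cyp1b1, Myh11, Synm, Col10a1, Fap and Hoxb5 do not.

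Across all genes, none of 17404 passed an adjusted p of 0.05 (limma, 0.0%). The lowest adjusted p was 0.226. At an unadjusted p under 0.05 there were 841 genes (4.83%), with 326 higher (1.87%) and 515 lower (2.96%) in Trp53 het bladders. The precision was modest, with a median standard error of 0.41 in log2 units. All 3 Trp53 het arrays lay above all 4 Cre control arrays, with a difference of at least 1, for 94 genes (0.54%), and below them by the same rule for 353 genes (2.03%). The same fit with slide as a block called 54 genes (0.31%), of which 4 were higher (0.023%) and 50 lower (0.287%) in Trp53 het bladders. Only those 54 are called changed below, and each such statement is that of the slide block. All 54 had the same sign without the block and on each slide alone, and 43 had groups that did not overlap. The 54 were picked by a fit on these same arrays, so that neither count is separate support. With slide as a block over the 7 arrays alone the count was 0, so that these calls depend on the other 15 arrays, and it was 0 too with slide as a random block over all arrays. Of the 54 genes, 25 were above background on all 3 Trp53 het arrays, 4 on 2, 17 on 1 and 8 on none. Where an array of either side was not above background, the size of the difference rests in part on values not above it.

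The genes described next were picked from the 54 after their values were seen, so that their grouping by known role is a description with no test, and 3 of the 54 are members of the squamous list. Il1f6, which encodes the epithelial cytokine interleukin-36 alpha, was called lower. Its level was -4.19, -5.21 and -4.33 in Trp53 het bladders, against -0.66 and 2.10 in Krt5-Cre and -0.71 and 2.55 in Upk2-Cre bladders. It was above background on 1 of 3 Trp53 het arrays and on 4 of 4 Cre controls. With slide as a block its difference was -5.72 ± 0.79 (limma, adjusted p = 0.00732), and without the block -5.40 ± 1.62 (adjusted p = 0.724). Its antagonist Il1f5, above background on 1 of 3 Trp53 het arrays, was also lower (-5.19, adjusted p = 0.0212 in the same limma fit with the block), as was Il1r2, the decoy receptor for interleukin-1. Il1r2 stood at 1.94, -0.08 and 1.73 in Trp53 het bladders, against 4.57, 5.73, 3.66 and 3.51 in the Cre controls (-3.18 ± 0.62 with the block, limma adjusted p = 0.0467).

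Lor encodes loricrin, a main protein of the envelope. Its level was 2.03, 2.36 and 2.04 in Trp53 het bladders, against 4.41, 6.66, 5.92 and 7.65 in the Cre controls. No array overlapped, and the slide-block difference was -4.28 ± 0.71 (limma, adjusted p = 0.023; without the block -4.02 ± 1.19, adjusted p = 0.707). Cdsn, which encodes corneodesmosin of the junctions between cornified cells, was at -0.89, -0.60 and -0.22 in Trp53 het bladders, against 2.48, 4.65, 3.44 and 5.23 in the Cre controls (-4.85 ± 0.80 with the block, limma adjusted p = 0.0223). Sprr2i, a small proline-rich envelope precursor, was at -4.00, -5.08 and -4.85 in Trp53 het bladders, against -0.93, 2.97, -0.92 and 0.63 in the Cre controls. Only 1 of 3 Trp53 het arrays measured it above background, and its difference was -5.40 ± 0.98 with the block (limma, adjusted p = 0.0329). Lce3d of the late envelope (-4.88), Tgm5, a cross-linking transglutaminase (-2.52), Dsg1b (-4.50) and Dsg1a, desmogleins of the upper layers, and Cst6, a protease inhibitor of cornification (-3.47), were called as well. Dsg1b was above background on 1 of 3 Trp53 het arrays. Dsg1a overlapped between the groups and was above background on 0 of 3 Trp53 het and 3 of 4 Cre control arrays. By the rule for bounds it was 1.92-fold lower in Trp53 het bladders. That fold is not a strict bound, because it includes a Cre control value not above background.

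Alox12b and Aloxe3 are the lipoxygenases that act one after the other on barrier ceramides. Alox12b stood at -1.40, -2.54 and -1.68 in Trp53 het bladders, against 1.04, 3.18, 1.69 and 3.96 in the Cre controls, and Aloxe3 at -3.27, -5.06 and -2.71 in Trp53 het bladders, against -0.36, 2.12, -0.45 and 2.19 in the Cre controls. Their slide-block differences were -4.64 ± 0.91 and -4.79 ± 0.81 (limma, adjusted p = 0.0467 and 0.0241), and Aloxe3 was above background on 2 of 3 Trp53 het arrays. Abca12, which loads lipid into lamellar granules (-4.57), Acer1, a ceramidase (-5.35), Smpd3, a sphingomyelinase (-4.12), and Nipal4, whose loss causes ichthyosis in humans (-2.90), were called too, each above background on 1 of 3 Trp53 het and 4 of 4 Cre control arrays. So were the transcription factors Klf4 (-1.56) and Ovol1 (-1.82), both regulators of epithelial differentiation. Klf4 overlapped between the groups and Ovol1 did not.

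Capns2, a calpain subunit above background on 1 of 3 Trp53 het and 4 of 4 Cre control arrays, was at -5.55, -5.36 and -4.61 in Trp53 het bladders, against -2.29, -0.74, -1.74 and -0.51 in the Cre controls (-4.02 ± 0.34 with the block, limma adjusted p = 0.000114). Endou, which encodes a calcium-dependent endoribonuclease, was at -2.40, -2.39 and -0.73 in Trp53 het bladders, against 1.67, 4.72, 2.58 and 4.27 in the Cre controls (-5.52 ± 0.59, limma with the block, adjusted p = 0.00105). Neither gene overlapped between the groups. Also called lower with slide as a block were Defb4 (-4.23) and S100a7a (-3.12), which encode antimicrobial peptides and were above background on 1 of 3 Trp53 het arrays, and Serpinb3c, a protease inhibitor (-3.68). Spink7, another protease inhibitor, was above background on 0 of 3 Trp53 het and 3 of 4 Cre control arrays. It was 2.13-fold lower in Trp53 het bladders by the rule for bounds, again with a Cre control value not above background. Pla2g4d, a phospholipase, and Them5, a thioesterase, were above background on 0 of 3 Trp53 het and 4 of 4 Cre control arrays, and were at least 2.32-fold and 3.53-fold lower in Trp53 het bladders. Srms, a tyrosine kinase (-1.77), Spdef, an epithelial transcription factor (-3.35), and Il17rc, a subunit of the interleukin-17 receptor (-1.09), were among the rest. Spink7 and Il17rc overlapped between the groups.

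**Figure D2:**
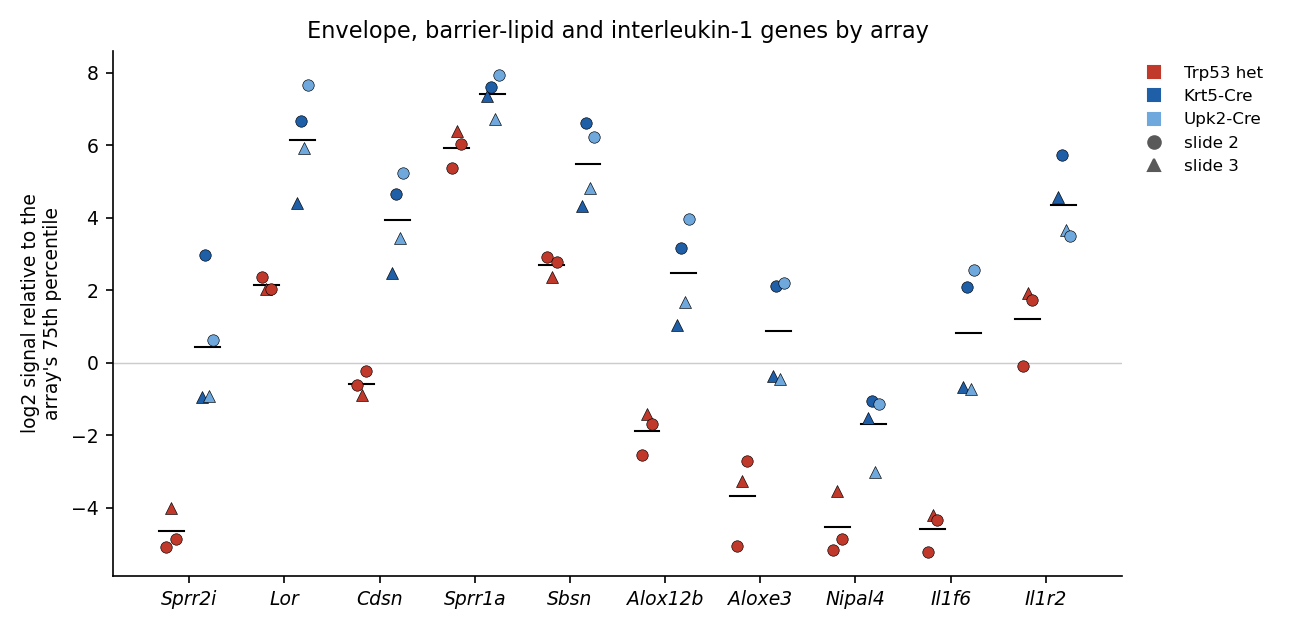
Log2 level (relative to the 75th percentile of the array) of 10 genes of the envelope, the lipid barrier and the interleukin-1 family, for 3 Trp53 het arrays (red, left) and 4 Cre control arrays (right, Krt5-Cre in dark and Upk2-Cre in light blue). Circles are slide 2, triangles slide 3 and bars the plain mean of a side. The 3 Trp53 het arrays lie below all 4 Cre control arrays for each gene shown, and the Cre controls of slide 2 lie above those of slide 3 for each but Il1r2.

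The windows around the start sites of Lor, Sprr2i and Alox12b are shown because these genes were low together. Each covers 300 bases, most of them upstream of the start, 5′ to 3′ on the gene's strand, from RefSeq on GRCm38.p6. Capitals mark the letters TGANTCA, the core of the AP-1 site, which reads the same on both strands.
Lor, chr3:92083093-92083392, minus strand: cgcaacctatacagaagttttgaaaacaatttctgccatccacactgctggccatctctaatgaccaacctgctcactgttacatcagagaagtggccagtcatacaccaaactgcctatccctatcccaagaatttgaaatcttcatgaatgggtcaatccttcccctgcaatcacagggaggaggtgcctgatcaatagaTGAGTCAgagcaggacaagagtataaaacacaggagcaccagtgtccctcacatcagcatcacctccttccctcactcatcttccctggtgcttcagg
Sprr2i, chr3:92407741-92408040, plus strand: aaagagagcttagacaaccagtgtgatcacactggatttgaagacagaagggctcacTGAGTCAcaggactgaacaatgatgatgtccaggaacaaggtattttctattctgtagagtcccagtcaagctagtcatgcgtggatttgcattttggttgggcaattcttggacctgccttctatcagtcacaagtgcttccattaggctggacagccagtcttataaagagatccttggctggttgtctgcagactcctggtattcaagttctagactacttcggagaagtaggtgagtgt
Alox12b, chr11:69156822-69157121, plus strand: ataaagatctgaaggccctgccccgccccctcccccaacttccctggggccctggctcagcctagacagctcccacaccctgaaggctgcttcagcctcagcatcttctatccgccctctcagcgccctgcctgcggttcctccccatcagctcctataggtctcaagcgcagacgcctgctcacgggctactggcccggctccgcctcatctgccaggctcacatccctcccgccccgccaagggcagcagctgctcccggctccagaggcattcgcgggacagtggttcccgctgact
The letters occurred 1 time in the Lor window, 1 time in the Sprr2i window and 0 times in the Alox12b window. Of 32851 such windows, 7.81% held them.

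The list of squamous differentiation genes leaned lower as well. It was read on the same arrays and holds 3 of the called genes. Its members were chosen with earlier results of these data known, so that the list is not separate support for those calls. Of 29 members tested, 27 had a difference below 0 and the median was -2.06, against 0.03 over all genes. For 14 of the 29 all Trp53 het arrays lay below all Cre controls by 1 or more, beside 2.03% of all genes, and 3 (Lor, Cdsn and Dsg1a) were called with slide as a block, beside 0.287% of all genes. The mean level over the members was 2.16, 2.36 and 2.43 in Trp53 het bladders, against 3.50 and 5.22 in Krt5-Cre and 3.49 and 5.23 in Upk2-Cre bladders. The Trp53 het arrays were close together and below every Cre control, but 2 of the 3 share an animal code. The lower Cre control of each driver lay on slide 3 and the higher on slide 2. In the 12 bladders with an activated mutation the same mean ran from -0.82 to 4.90 with a median of 2.50, and in the 3 normal bladders the median was -3.04. The median difference was -2.81 within slide 2 and -1.32 within slide 3. With the sex label as a covariate it was -1.15, and without the 2 arrays that went against their sex label -1.38. Sprr1a (-1.48 ± 0.56) and Sbsn (-2.80 ± 1.13), envelope and suprabasal proteins, did not overlap between the groups but were not called (limma, adjusted p = 0.819 and 0.922). The keratin Krt6a (-0.49) and the envelope protein Ivl (-0.86), members of the list, differed by less.

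The basal and luminal lists had smaller median differences, and no member was called with slide as a block, beside 0.31% of all genes. Krt5 stood at 8.04, 9.91 and 8.94 in Trp53 het bladders, against 8.15, 9.39, 8.71 and 9.08 in the Cre controls (0.13 ± 0.44), and Krt14 differed by 0.20 ± 0.61. Both signs turned with slide as a block (-0.05 and -0.01). The 22 basal genes had a median difference of 0.13, with 0 lying apart, beside 0.54% of all genes higher and 2.03% lower. Ngfr, a receptor of basal cells (1.52 ± 0.64, limma adjusted p = 0.969), and Itga3 and Dst, which anchor basal cells to their matrix, had differences of 0.60 or more and overlapped between the groups. Upk2, a uroplakin of the luminal surface, was at -0.20, 0.86 and -0.73 in Trp53 het bladders, against 1.34, 0.82, 0.35 and 1.39 in the Cre controls (-0.995 ± 0.84). All 7 lay far below the 5.83 to 6.47 of normal bladders. Of 29 luminal genes, 10 were above 0 and the median was -0.19. Cldn3, a tight junction protein, was the 1 member that lay apart, and it was higher, beside 0.54% of all genes. Its level was 2.99, 4.24 and 2.87 in Trp53 het bladders, against 2.70, 1.39, 1.43 and 1.06 in the Cre controls (1.72 ± 0.67, limma adjusted p = 0.853). Krt19, a keratin of simple epithelia, differed by 0.88 ± 0.40.

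Genes that metabolise foreign compounds leaned lower in Trp53 het bladders, and 1 of them was called with slide as a block: Cyp1b1, a cytochrome P450 induced through the aryl hydrocarbon receptor. Its level was -0.35, -1.65 and -1.90 in Trp53 het bladders, against 2.87 and 2.67 in Krt5-Cre and 1.09 and 2.74 in Upk2-Cre bladders. No array overlapped, and the slide-block difference was -3.69 ± 0.67 (limma, adjusted p = 0.0329; without the block -3.65 ± 0.72, adjusted p = 0.293). The normal bladders lay at 2.37 to 2.88 and the 12 activated mutants had a median of -0.02. Nqo1, a quinone reductase, was at 0.37, -1.07 and -1.01 in Trp53 het bladders, against 3.16, 2.51, 0.33 and 1.69 in the Cre controls, so that 1 array of each side overlapped (-2.49 ± 0.72, limma adjusted p = 0.679). Aldh3a1, an aldehyde dehydrogenase, differed by -2.13 ± 0.86. Cyp1a1 differed by -2.35 ± 0.94 and was above background on 1 of 3 Trp53 het and 3 of 4 Cre control arrays. All 20 members of the NRF2 and xenobiotic list had a difference below 0, with a median of -0.53. Of the 20, 1 (Cyp1b1) lay apart, beside 2.03% of all genes lower, and the same gene was called with slide as a block, beside 0.287%. The mean level of the list overlapped, at 0.57 to 1.74 in Trp53 het and 1.31 to 2.70 in Cre control bladders.

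The start-site windows of Cyp1b1 and Cyp1a1 are shown because the aryl hydrocarbon receptor is known to induce both. Capitals mark GCGTG, the core letters of its binding site, or their reverse complement CACGC.
Cyp1b1, chr17:79715012-79715311, minus strand: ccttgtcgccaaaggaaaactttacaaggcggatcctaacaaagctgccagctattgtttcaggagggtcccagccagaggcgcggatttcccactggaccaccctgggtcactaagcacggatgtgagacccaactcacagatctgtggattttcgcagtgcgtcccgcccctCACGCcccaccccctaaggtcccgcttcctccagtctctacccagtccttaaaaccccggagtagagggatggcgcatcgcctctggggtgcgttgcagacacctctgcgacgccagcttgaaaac
Cyp1a1, chr9:57697363-57697662, plus strand: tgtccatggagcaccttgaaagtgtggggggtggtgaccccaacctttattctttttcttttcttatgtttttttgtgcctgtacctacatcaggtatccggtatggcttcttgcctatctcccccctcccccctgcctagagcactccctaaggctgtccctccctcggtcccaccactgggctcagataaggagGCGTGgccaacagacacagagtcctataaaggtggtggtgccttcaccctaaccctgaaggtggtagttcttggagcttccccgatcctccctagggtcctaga
Each window held the letters 1 time, on one strand or the other. Of all 32851 windows, 32.4% held them.

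Muscle genes leaned lower as well, with none called. All 18 smooth muscle genes had a difference below 0, with a median of -1.45, and 9 of them lay apart and lower, beside 2.03% of all genes. Their mean level was 0.61, 0.33 and 0.70 in Trp53 het bladders, against 3.61 and 1.77 in Krt5-Cre and 1.38 and 1.08 in Upk2-Cre bladders. Krt5-Cre 1 was the highest, and without it the median was -0.85. Synm, an intermediate filament protein of muscle, was at 0.78, 0.24 and 0.79 in Trp53 het bladders, against 4.96, 3.30, 2.35 and 2.33 in the Cre controls (-2.63 ± 0.83, limma adjusted p = 0.763). Myh11, the smooth muscle myosin, was at 2.09, 1.94 and 2.49 in Trp53 het bladders, against 5.39, 4.13, 3.07 and 3.71 in the Cre controls (-1.91 ± 0.84), and Synpo2 and Lmod1, both bound to actin, differed by -2.62 and -2.03. None was called, with or without the block. Against Krt5-Cre the median of the list was -2.17 and against Upk2-Cre it was -0.66. The 10 skeletal muscle genes had a median of -1.39, with 3 lying apart and lower, beside the same 2.03%. The 3 normal bladders, titled normal urothelium, had a smooth muscle mean of -0.99 to -0.16. How much muscle each sample held was not tested.

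**Figure D3:**
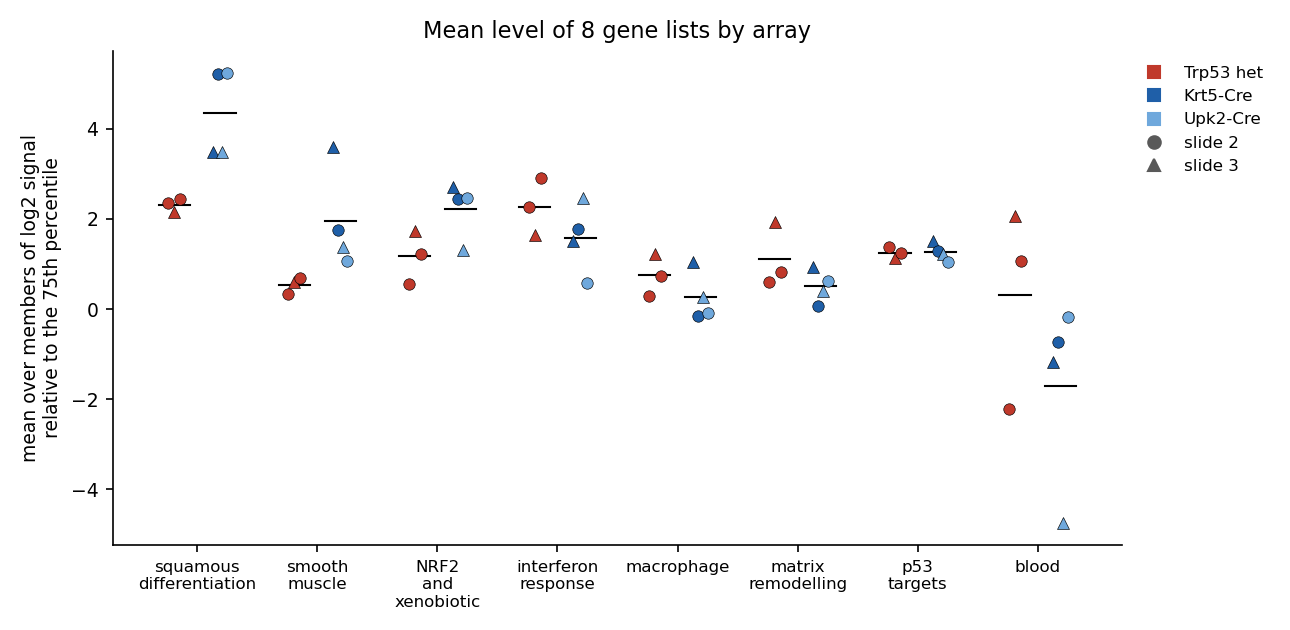
Mean log2 level over the members of 8 gene lists (relative to the 75th percentile of the array) for 3 Trp53 het arrays (red, left) and 4 Cre control arrays (right, Krt5-Cre in dark and Upk2-Cre in light blue), with circles for slide 2, triangles for slide 3 and bars for the plain mean of a side. The squamous and smooth muscle means of all Trp53 het arrays lie below those of all Cre controls, and the NRF2, interferon, macrophage, matrix, p53 target and blood means overlap.

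Of the genes higher in Trp53 het bladders, 4 were called with slide as a block: Col10a1, Kcnq1, Gpr25 and Xaf1. Col10a1, a collagen of cartilage and of some tumour stroma, was at -0.64, -2.07 and 0.35 in Trp53 het bladders, against -7.44, -4.73, -4.99 and -5.42 in the Cre controls. It was above background on 3 of 3 Trp53 het arrays and 0 of 4 Cre controls, so that only a bound can be given. Trp53 het bladders were at least 10.3-fold higher (limma with the block, adjusted p = 0.037, and 0.226 without it). Each Cre control array entered that fold at its own level or at its lowest level well above background, whichever was higher. The activated mutants had a median of -1.50 for this gene and the normal bladders -6.57. Kcnq1, a potassium channel subunit, was at 1.63, 0.82 and 1.40 in Trp53 het bladders, against -1.89, -3.42, -1.27 and -0.66 in the Cre controls. With the block its difference was 3.22 ± 0.56 (limma, adjusted p = 0.0294). Its Krt5-Cre 2 value lay below -2.77, the lowest level well above background on that array, and the size rests in part on it. Gpr25, a G protein-coupled receptor, was at -1.04, 0.79 and 0.48 in Trp53 het bladders, against -2.68, -1.89, -3.47 and -2.37 in the Cre controls (2.51 ± 0.49 with the block, limma adjusted p = 0.0466).

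The genes of smallest p among those that lay higher included 3 neighbours of the Hoxb cluster on chromosome 11, which encode transcription factors of position along the body axis. Hoxb8 was at 0.05, -0.05 and 0.43 in Trp53 het bladders, against -3.39, -4.92, -4.86 and -3.04 in the Cre controls (4.19 ± 1.09, limma adjusted p = 0.622). Hoxb5 (2.52 ± 0.59) and Hoxb6 (2.78 ± 0.75) did not overlap either. For Hoxb8 the Krt5-Cre 2 value lay below -2.77, the lowest level well above background on that array. Normal bladders lay at -1.60 to -0.81 for Hoxb5, within the range of the Trp53 het bladders, and at 0.08 to 0.69 for Hoxb6, below it. Fap, a protease of activated fibroblasts, was at -0.97, -1.21 and -0.88 in Trp53 het bladders, against -2.23, -1.74, -3.19 and -2.69 in the Cre controls (1.44 ± 0.36, limma adjusted p = 0.587). Hes6, a regulator in the Notch family (1.18), Cemip2, a cell surface hyaluronidase (0.998), and B4galt5, a galactosyltransferase of glycolipids (1.29), did not overlap. Nor did Sestd1 (1.16). Nrn1l (1.21) was above background on 1 array of each side. Among the named genes on the lower side, Hs3st6, a heparan sulfate sulfotransferase (-3.22 with the block), Slc28a3, a nucleoside transporter (-4.86), Capns2, Xkrx (-2.64) and Mfap3l (-1.44) were called with slide as a block. Slc28a3 and Xkrx were above background on 1 of 3 Trp53 het arrays. Anxa9 (-2.16), Tm7sf2, a sterol reductase (-1.43), and Kank1 (-1.37) lay apart and were not called.

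Interferon, macrophage and matrix genes leaned upwards with little separation of the groups. Of 25 interferon-response genes, 24 had a difference above 0, with a median of 0.43, but 0 lay apart, beside 0.54% of all genes higher. The median was 1.20 within slide 2, -0.11 within slide 3 and -0.18 without the 2 arrays that went against their sex label. Oasl2, an antiviral protein, was at 2.61, 3.42 and 4.16 in Trp53 het bladders, against 2.18, 2.21, 3.14 and 0.98 in the Cre controls (1.27 ± 0.59, limma adjusted p = 0.9998). Oas3 (1.49) and Bst2 (1.01), both antiviral, overlapped too. Xaf1, an interferon-induced gene of cell death, was the 1 member called with the block, beside 0.023% of all genes called higher. It was at 1.95, 3.04 and 3.97 in Trp53 het bladders, against -4.35 and -4.00 in Krt5-Cre and 2.56 and 0.77 in Upk2-Cre bladders. The Krt5-Cre arrays alone stood low, and Upk2-Cre 1 overlapped the Trp53 het arrays. Its difference was 4.16 ± 0.75 with the block (limma, adjusted p = 0.0329) and 4.24 ± 0.83 without it (adjusted p = 0.293). Another probe of Xaf1 gave a difference of 0.04. For the probe used, the Krt5-Cre 2 value lay below -2.77, the lowest level well above background on that array.

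Among 15 macrophage genes 14 lay above 0 with a median of 0.50. Trem2, a lipid receptor of macrophages, was the 1 member that lay apart and higher by 1 or more, beside 0.54% of all genes. Its level was 2.47, 1.94 and 2.55 in Trp53 het bladders, against 1.40, 1.43, 1.12 and 0.77 in the Cre controls (1.14 ± 0.52, limma adjusted p = 0.9998). C1qc, a complement subunit (0.90), did not overlap, and Itgam (1.09) did. The 20 matrix genes had a median of 0.69, with 16 above 0 and 1 apart and higher, beside 0.54% of all genes. Timp1, an inhibitor of matrix proteases, was at 4.58, 3.53 and 4.68 in Trp53 het bladders, against 3.30, 1.87, 2.26 and 2.43 in the Cre controls (1.80 ± 0.65, limma adjusted p = 0.814). Thbs1 (1.13) and Timp3 (1.07) overlapped.

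Spp1 encodes osteopontin, a secreted matrix protein. It was at 4.32, 2.32 and 2.73 in Trp53 het bladders, against -1.79 and 4.48 in Krt5-Cre and -0.33 and 1.07 in Upk2-Cre bladders. The difference was -0.25 within slide 2 and 5.38 within slide 3, and it was the 1 gene of 17404 whose difference itself differed between slides (limma, adjusted p = 0.00305). The slide 3 value rests on 1 array of each group, assumed to vary like the other groups. Genes of blood cells also parted by slide, with a median of -0.28 on slide 2 and 5.58 on slide 3 over 6 members, and antigen presentation genes with 1.26 and -1.87 over 13 members. These list medians were not tested.

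Among 23 genes of neutrophils and acute inflammation the median was 0.11. Ptgs2, the inducible cyclooxygenase, was at 0.24, -1.72 and -0.51 in Trp53 het bladders, against 0.60, 2.18, 0.71 and 0.92 in the Cre controls (-1.77 ± 0.66, limma adjusted p = 0.819), and Il1rn, the interleukin-1 receptor antagonist, differed by -1.15. Neither overlapped. Mmp8, a neutrophil collagenase (1.82), and Il1a (-1.56) did. The 37 cell cycle genes had a median of -0.15. Of these, 0 lay apart, beside 0.54% of all genes higher and 2.03% lower. In limma 0 were under an unadjusted p of 0.05, beside 4.83% of all genes.

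Tamoxifen, which the Cre controls alone received, is a ligand of the oestrogen receptor. The 10 genes of that receptor and its responses had a median of -0.30, with 2 counted as apart and lower in Trp53 het bladders, beside 2.03% of all genes. For Pgr the count rests on values not above background. Pgr, the progesterone receptor, was at -7.64, -5.24 and -5.88 in Trp53 het bladders, against -1.58, 0.28, -1.84 and -4.53 in the Cre controls. It was above background on 0 of 3 Trp53 het and 3 of 4 Cre control arrays (limma, adjusted p = 0.763). Trp53 het bladders were 4.91-fold lower by the rule for bounds. That fold is not a strict bound, because it includes the Upk2-Cre 2 value, which was not above background. Another probe of Pgr gave -0.95. Greb1, an early oestrogen-induced gene, was at -3.86, -1.87 and -0.65 in Trp53 het bladders, against 0.14, 2.43, -0.22 and -0.19 in the Cre controls (-2.67 ± 0.82, limma adjusted p = 0.763). Normal bladders had medians of -2.73 for Pgr and -1.76 for Greb1, and for Greb1 all 4 Cre controls lay above the normal range. Esr2 (0.65) and Gper1 (1.04), both oestrogen receptors, were higher in Trp53 het bladders without being called.

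**Figure D4:**
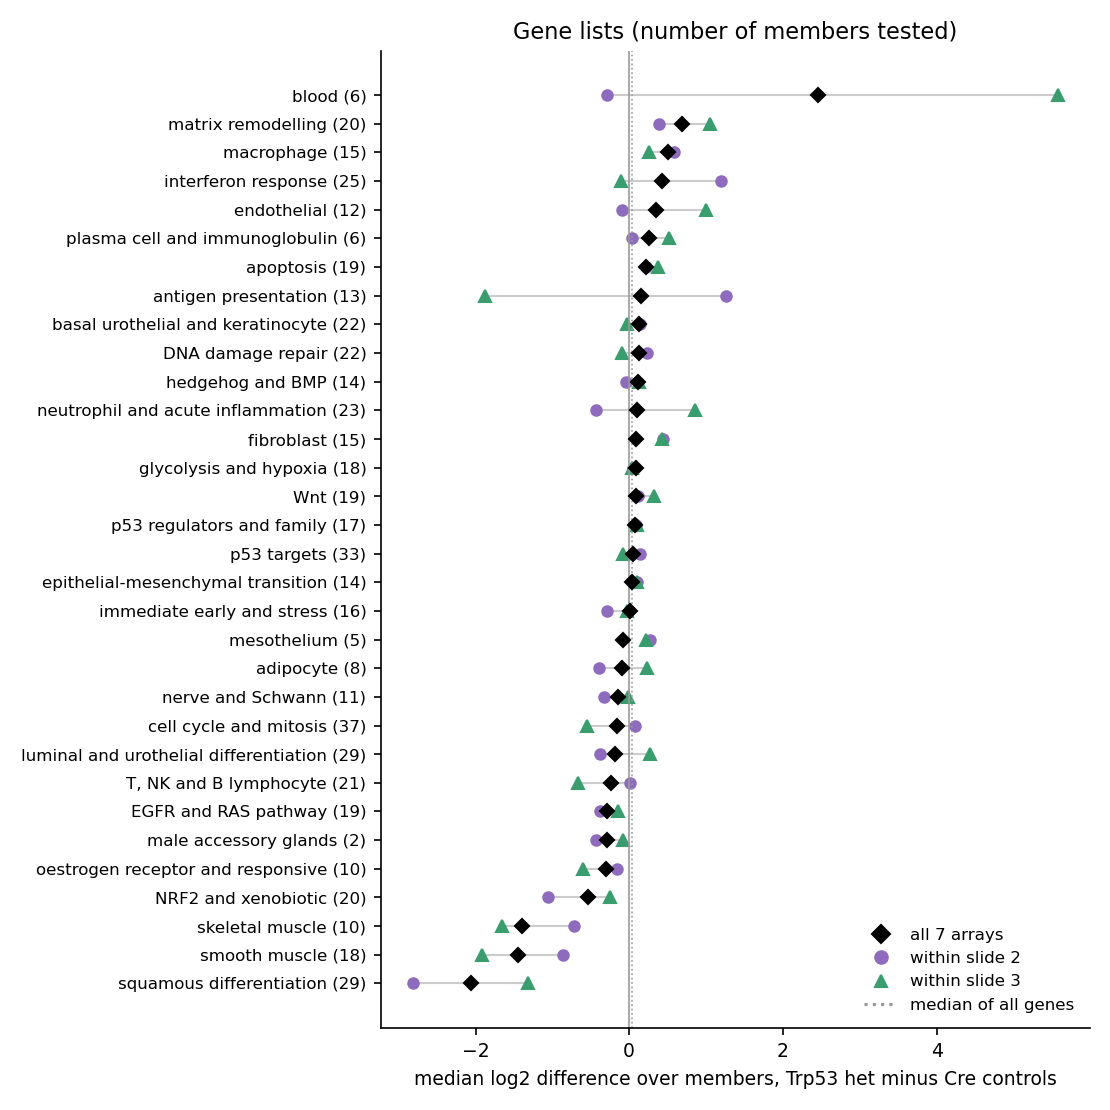
Median log2 difference (Trp53 het minus Cre controls) over the members of 32 gene lists, with the number of members tested in brackets. The dotted line is the median of all genes tested. Diamonds use all 7 arrays, circles slide 2 and triangles slide 3. The squamous list is lowest at -2.06 and keeps its sign on both slides, and the interferon and blood lists change sign between slides.

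Genes within 5 Mb of Trp53 on chromosome 11 were described because the Trp53 het mice carry an allele there that the Cre controls lack. The 183 tested had a median of 0.02. Of these, 10 lay apart lower, beside 2.03% of all genes, and 1 apart higher, beside 0.54%. With slide as a block 3 were called lower (Aloxe3, Alox12b and Ggt6), beside 0.287%, and 1 higher (Xaf1), beside 0.023%. Aloxe3 lies at chr11:69125417-69149115 (GRCm38.p6) and Xaf1 at chr11:72301461-72313733, whose start is 2.72 Mb from that of Trp53. Ggt6, a gamma-glutamyltransferase, was at 0.23, -0.38 and -0.30 in Trp53 het bladders, against 1.48, 2.62, 0.71 and 2.76 in the Cre controls. P2rx5, a purinergic receptor, was at -2.73, -2.29 and -1.98 in Trp53 het bladders, against -0.71, -0.87, -1.79 and -0.38 in the Cre controls (-1.40 ± 0.36, limma adjusted p = 0.609).

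Against each driver alone the counts were small. Trp53 het minus Krt5-Cre gave 2 called genes of 17404 (limma, 0.0115%), beside 1008 (5.79%) at an unadjusted p under 0.05 and 18 (0.103%) with slide as a block. Xaf1 was higher by 7.16 ± 0.99 (adjusted p = 0.0277) and Hs3st6 lower by a difference of -4.26 ± 0.64 (adjusted p = 0.0381). For Xaf1 the Krt5-Cre 2 value lay below the lowest level well above background on that array, and the size of 7.16 rests in part on it. Arrays numbered 1 lie on slide 3 and the others on slide 2. With the replicate block neither gene was called (adjusted p = 0.121 for both). Trp53 het minus Upk2-Cre gave 0 called genes (limma, 0.0%, with 578, or 3.32%, at an unadjusted p under 0.05 and 9, or 0.0517%, with slide as a block). Krt5-Cre and Upk2-Cre controls were not separated from each other, with 0 called genes in limma, 625 at an unadjusted p under 0.05 and a lowest adjusted p of 0.203. The comparisons with either driver share the Trp53 het arrays. For the squamous list the median was -1.95 against Krt5-Cre and -1.69 against Upk2-Cre.

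The 2 slides share no array, but Trp53 het 1 and 2 lie on different slides and share an animal code, as do Upk2-Cre 1 and 2, so that the slides may not be independent. Across the 17404 genes the slide 2 and slide 3 differences had a Pearson correlation of 0.239, with 53.8% of genes of the same sign, and genes are not independent replicates. Of 760 genes with a difference of at least 1 in size on both slides, 552 (72.6%) had the same sign, 413 of them lower and 139 higher in Trp53 het bladders. Within slide 2 alone 70 genes were called (0.402%), 6 higher (0.0345%) and 64 lower (0.368%). Within slide 3 alone 4 were called (0.023%), 3 higher (0.0172%) and 1 lower (0.00575%). Slide 3 holds a single Trp53 het array, which is assumed there to vary like the other groups.

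**Figure D5:**
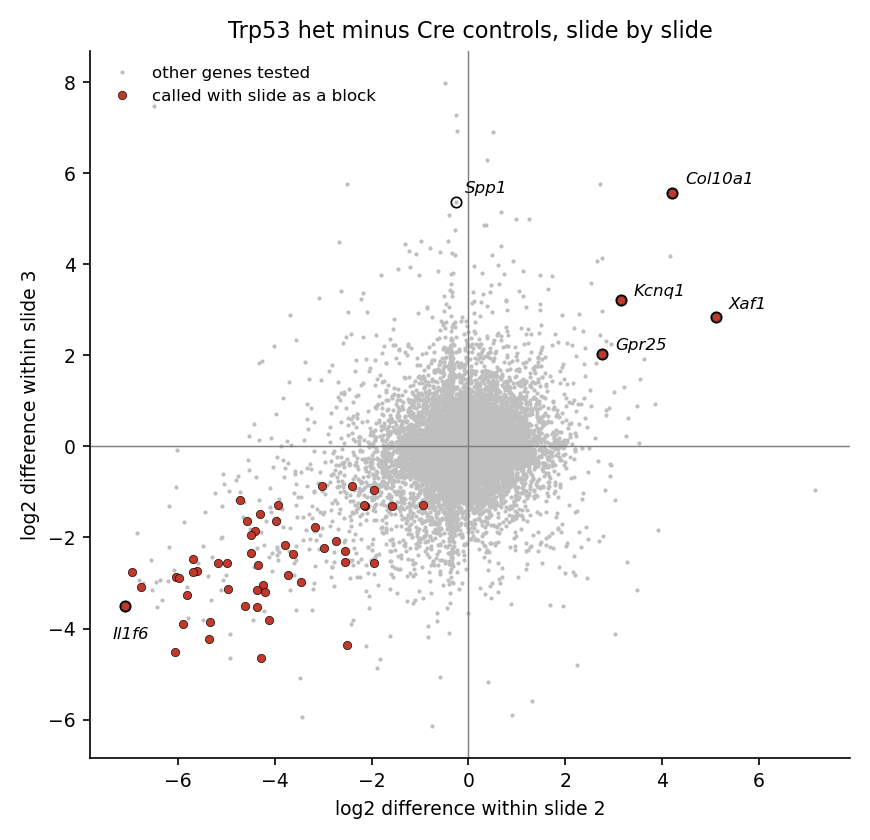
Log2 difference (Trp53 het minus Cre controls) of 17404 genes within slide 2 (x axis) and within slide 3 (y axis), which share no array. Grey points are other genes and red points the 54 genes called with slide as a block. Of the 54, which were picked by a fit on these same arrays, 50 lie at the lower left and 4 at the upper right. Spp1 lies near 0 on slide 2 and at 5.38 on slide 3.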

How the data were processed

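One-colour Agilent arrays of 22 mouse bladders were used, of which 7 form the comparison. The authors deposited each array's spot intensities, which Feature Extraction 11.0.1.1 had background-subtracted and detrended per the file headers, and a table of log2 values normalized between arrays. The submitters' processing notes name Feature Extraction 9.1 and limma. Here the processed intensity was taken to log2 and each array's 75th percentile over unflagged, non-control spots was subtracted. Spots of a probe were averaged, the brightest probe stood for its gene, and genes well above background on at least 2 of 22 arrays were kept. A further 17 genes were dropped for a flagged value, which left 17404. The accession that the array gives each probe was looked up among RefSeq transcripts, which gave a gene symbol for 32994 of 56605 probes. The 13556 tested probes with no name held 0 called in limma, with 428 at an unadjusted p under 0.05. The number of arrays limits the precision.

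limma 3.58.1 in R 4.3.3 fitted 8 group means over all 22 arrays, and p-values were Benjamini-Hochberg adjusted over all genes at a threshold of 0.05. No source used here says that arrays of a group came from separate animals beyond the codes, so p-values measure the spread between these arrays. A gene lay apart where all 3 arrays of one side were beyond all 4 of the other and, in counts, the difference was at least 1. A probe above background on no array of a side was given only a bound, from means of normalized log2 values. On that side each array entered at its own level or its lowest level well above background, whichever was higher. The other side entered at its own levels. Where some of those were not above background, the fold is not a strict bound. Genes were named as follows: Trp53, Cdkn1a, Mdm2, Krt5, Krt14 and Upk2, the 12 non-overlapping genes of smallest p in each direction (4 predicted genes skipped), up to 4 members of smallest p from each described list and up to 4 near Trp53. Other named genes, including those called with slide as a block, were chosen after their values were seen. Some genes that these rules name are not reported here. The members and lists were chosen with earlier results of these data known.

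Same-numbered arrays share a slide, and their deviations from the group means correlated in each pair, at 0.176 to 0.556. Number and slide cannot be told apart in these pairs, and differently numbered pairs were not compared. In a group of 2 arrays the deviations also mirror each other. The correlations therefore cannot show that the number pairs arrays, and the replicate block is only an alternative setting. The alternatives were quantile normalization, normexp, the deposited table, other filters, probes and arrays, slide and replicate blocks, sex and animal-code terms, array weights and leaving out each array. Promoter windows came from RefSeq tables of GRCm38.p6. Tables and plots used Python 3.11.15, pandas 2.3.3, numpy 2.4.6 and matplotlib 3.10.9.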

Additional observations from a re-analysis of the deposited data

Results flagged for a closer look

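In 6 of 109 sets of 4 Cre control values, 1 array stood far from the other 3 by Dixon's test, and chance alone marks about 1 in 20 such sets. Cyp1b1 ran from 1.09 in Upk2-Cre 1 to 2.87, and Aldh3a1 from 4.01 in the same array to 6.96. Cdc42ep3 ran from 0.73 to 2.64 in Krt5-Cre 1, Sesn1 from 1.67 to 2.31 in Upk2-Cre 1, and Greb1 from -0.22 to 2.43 in Krt5-Cre 2. The mean level of the p53 regulators and family list ran from 0.3814 to 0.7573 over the Cre controls. Spp1 was marked because its Trp53 het minus Cre control difference was not the same on the 2 slides: slide 2 minus slide 3 gave -5.62539 (limma, adjusted p = 0.00305). The cause was not tested.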

How the results depend on the processing

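The 7 arrays, the median standard error of 0.41 and the joint differences in genotype, tamoxifen and transgenes limit what the comparison can show. The sex labels were uneven between the sides as well. Of the tested genes, 602 were above background on none of the 7 arrays. The 0 genes called became 1 with quantile normalization, 54 with slide as a block, 70 within slide 2, 4 within slide 3, 2 with array weights, and 0 to 1 when 1 array was left out (1 without Krt5-Cre 2 and 1 without Upk2-Cre 2). Every other setting run gave 0, including the replicate block and the fit without the 2 arrays that went against their sex label, chosen after seeing the data.

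Against Krt5-Cre the 2 called genes became 0 with normexp, with only the 7 or the 19 BBN arrays, with slide as a block over the 7 arrays, with arrays sharing a code averaged and without the 2 sex-mismatched arrays. They became 1 with the deposited table, with no filter, with the filter on all arrays, with the mean over probes, with sex as a covariate and with array weights, 18 with slide as a block, 5 within slide 2 and 7 within slide 3. Leaving out 1 array gave 0 to 3, with 0 without Trp53 het 2 or Trp53 het 3 and 1 without either Upk2-Cre array. The replicate block, which groups arrays by number, gave 0, also over the 7 arrays alone. The adjusted p over the settings in which each was tested was 0.00587 to 0.590 for Xaf1, which the deposited table and the filter on all arrays left out, and 0.0068 to 0.590 for Hs3st6. Against Upk2-Cre the 0 called genes became 9 with slide as a block, 9 within slide 2, 10 within slide 3, 1 without the 2 sex-mismatched arrays, and 0 to 1 when 1 array was left out (1 without Upk2-Cre 2). The replicate block changed no other count of called genes.

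The 94 genes apart and higher numbered 36 with normexp, 46 with the deposited table, 44 with the filter on all arrays, 646 within slide 2, 855 within slide 3, 258 with codes averaged, 291 without the 2 sex-mismatched arrays, and 140 to 339 with 1 array left out (339 without Trp53 het 1). The 353 apart and lower numbered 219, 193, 130, 1187, 1149 and 675 in the first 6 of those settings, and 373 to 624 with 1 array left out (624 without Upk2-Cre 1). With fewer arrays, groups lie apart more easily.

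Of 75 named genes, 66 kept their sign in every setting run. Trp53 turned to 0.040 within slide 2 and 0.074 without the 2 sex-mismatched arrays, and with 1 array left out it ran from -0.54 to 0.48 (positive without Trp53 het 1, 0.15 without Krt5-Cre 2 and 0.15 without Upk2-Cre 2), and Mdm2 to -0.0059 with the mean over probes and -0.035 within slide 2. Krt5 turned to -0.018 with quantile normalization, -0.12 with the deposited table, -0.046 with slide as a block, -0.041 with that block over the 7 arrays, -0.39 within slide 3, and with 1 array left out ran from -0.34 without Trp53 het 2 to 0.59 (-0.18 without Krt5-Cre 1). Krt14 turned to -0.0099, -0.061 and -0.0070 in the first 3 of those settings, -0.0079 with array weights, -0.43 within slide 3, and with 1 array left out ran from -0.47 without Trp53 het 2 to 0.72 (-0.13 without Krt5-Cre 1). Dst turned to -0.0092 with the mean over probes, Oasl2 to -0.048, Bst2 to -0.69 and Il1a to 0.10 within slide 3, and Spp1 to -0.25 within slide 2. Of 948 list medians under these settings, 118 had the other sign, and the squamous median stayed between -2.81 and -1.15. Causes were not tested.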
